A study of Drosophila melanogaster with 8 samples.

Results

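The Hsp70, Hsp68 and Hsp83 genes of Drosophila melanogaster are the large heat shock chaperone genes of the fly. They were followed here by gene name as 8 of the 17473 gene rows of a count table: Hsp68, the 6 Hsp70 copies Hsp70Aa, Hsp70Ab, Hsp70Ba, Hsp70Bb, Hsp70Bbb and Hsp70Bc, and Hsp83. All 8 passed the filter on low counts. The table held 8 RNA sequencing libraries labelled as intestinal stem cells, the dividing cells of the fly midgut, in 4 groups of 2 replicates. The first pair of groups carried control or mutant mitochondrial DNA (mtDNA), and the other pair carried control or mutant mtDNA together with knockdown of FOXO, a transcription factor of the insulin pathway. In every group, per the labels' protocol, formaldehyde-fixed material was sonicated, and anti-FLAG beads took up pAbp, which binds poly(A) tails, with its RNA. The mtDNA mutation, the driver of the tagged protein and of the knockdown, the age and the sex of the flies are not given in the sources used here, and nothing states that replicates came from separate flies. The p-values below therefore measure the spread between libraries, which may be technical.

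Hsp70 proteins bind unfolded stretches of other proteins and release them in an ATP-driven cycle, and Hsp83, the fly Hsp90, holds kinases, receptors and other client proteins in a form that can be activated. In Drosophila the Hsp70 genes and Hsp68 are close to silent without stress, with RNA polymerase paused near their start sites, and heat shock factor switches them on when unfolded proteins build up. Hsp83 is made at a high level without stress and rises further with it, and FOXO has been reported to act on heat shock genes in oxidative stress. The 6 Hsp70 genes encode nearly the same protein, so sequencing reads can match several of them, and their counts were summed. In the Ensembl annotation of BDGP6, Hsp70Aa (FBgn0013275) and Hsp70Ab (FBgn0013276) lie next to each other on opposite strands. Hsp70Bbb (FBgn0051354), Hsp70Bb (FBgn0013278) and Hsp70Bc (FBgn0013279) follow each other on the same strand, and Hsp70Ba (FBgn0013277) lies on the other strand of that second cluster. Each copy has 1 exon of 2324 to 2386 bases. Hsp68 (FBgn0001230), with 2231 bases in 1 exon, overlaps CG6000 and CR44097 on the opposite strand by 13 bases. Hsp83 (FBgn0001233), with 2960 bases of exon, overlaps CG14966 by 15 bases, and Hsp70Ab overlaps CG3281 by 27. Counts of these neighbours were at most 408 in any library.

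Libraries of the same group were not alike. Total counts were 21133996 to 39327066, and ribosomal RNA took 18.2% of them in control replicate 1 and 30.8% in mutant replicate 1 but 79.4% to 83.8% in the other 6 libraries. The former are called the low-rRNA libraries and the latter the high-rRNA libraries. All 4 libraries labelled FOXO knockdown are high-rRNA libraries, so control replicate 2 and mutant replicate 2 are the libraries without knockdown that match them. The foxo transcript itself stood at 43.3 to 66.5 CPM (counts in 1000000 counts of the scaled library) without and 48.1 to 53.0 CPM with the label. In the matching control replicate 2 and mutant replicate 2 it stood at 61.9 and 66.5 CPM, above all 4 knockdown libraries. Of all features, 8.88% shared that order. The low-rRNA libraries, at 43.3 and 49.9 CPM, did not lie above them, so foxo level alone did not settle the knockdown labels. The summed level of 5 progenitor markers was 38.4 to 95.9 CPM over all libraries and that of 5 enterocyte markers 2038 to 4067 CPM. None of these markers was at 0. Transcripts that mark other gut cells than the labelled stem cells were thus present. In such pooled RNA taken up with pAbp, fewer cells of a type, less RNA per cell and less uptake cannot be told apart.

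The summed Hsp70 copies were highest in the low-rRNA library with mutant mtDNA and lowest in the libraries labelled FOXO knockdown. In CPM on library sizes scaled by the trimmed mean of M-values (TMM), Hsp70 stood at 166 and 32.0 in control replicates 1 and 2, and at 393 and 28.4 in mutant replicates 1 and 2. With FOXO knockdown it stood at 14.4 and 17.2 with control mtDNA and at 15.1 and 11.9 with mutant mtDNA. These levels rest on 20823, 654, 25929, 799, 243, 269, 370 and 205 counts in the same order. All 4 knockdown libraries were lower than all 4 libraries without it, as for 4.2% of all features, and control and mutant libraries overlapped. Means were 98.9 ± 94.7 CPM with control mtDNA, 211 ± 258 with mutant mtDNA, 15.8 ± 1.98 with control mtDNA and knockdown, and 13.5 ± 2.32 with mutant mtDNA and knockdown (SD, n = 2 each). The spread within the groups without knockdown was as large as their mean, while the knockdown pairs lay close together. Replicate 1 was 5.19-fold above replicate 2 with control mtDNA and 13.8-fold above it with mutant mtDNA.

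**Figure D1:**
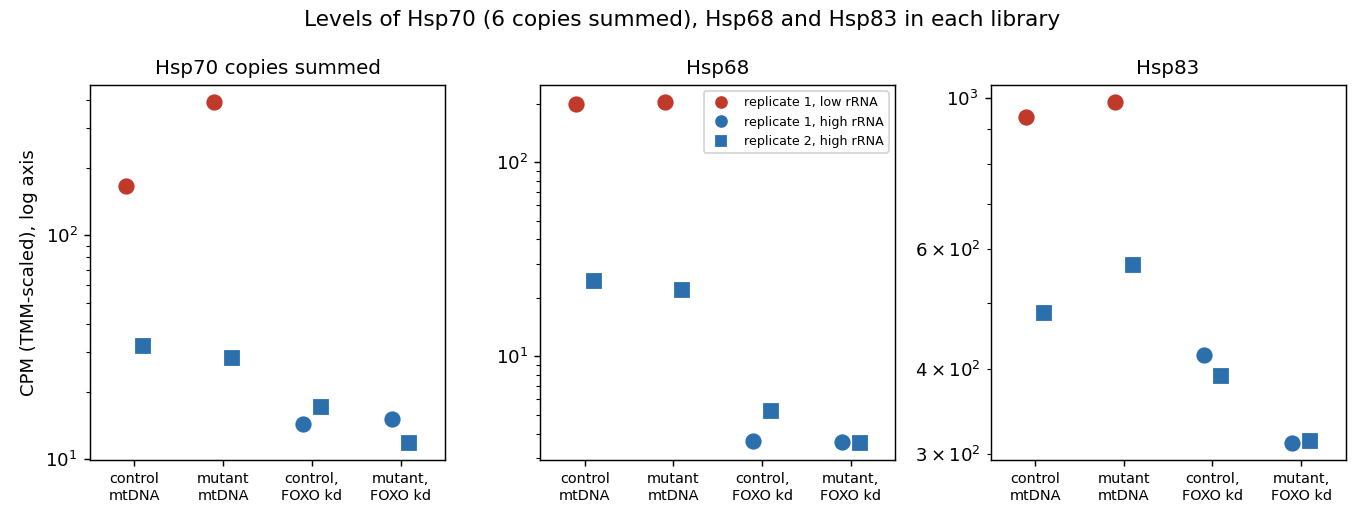
CPM on TMM-scaled library sizes (log axis) of the summed Hsp70 copies, Hsp68 and Hsp83 in each of the 8 libraries, by group, with low-rRNA and high-rRNA libraries marked. The 4 knockdown libraries sit lowest in all 3 panels, and control replicate 1 and mutant replicate 1 sit highest.

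Within the Hsp70 family, Hsp70Bb carried more counts than any other copy in every library but its share varied, and Hsp70Bbb and Hsp70Bc together took a smaller share where FOXO knockdown was labelled. Hsp70Bb held 42.7% and 42.5% of the Hsp70 counts in control replicates 1 and 2 and 36.9% and 33.0% in mutant replicates 1 and 2. With knockdown its share was 39.9% and 49.8% with control mtDNA and 61.3% and 48.8% with mutant mtDNA. Hsp70Bbb and Hsp70Bc together held 31.2% and 24.3% in the control libraries and 39.4% and 21.2% in the mutant libraries. With knockdown they held 2.47% and 10.8% with control mtDNA and 12.4% and 7.80% with mutant mtDNA, so the libraries with and without knockdown did not overlap. The share of Hsp70Bc alone did overlap, with 5.76% in mutant replicate 2 and 6.34% in mutant mtDNA with knockdown replicate 2. The knockdown libraries held 205 to 370 Hsp70 counts each, and 95% Wilson intervals there are wide. Hsp70Aa, for example, held 2.47% in control mtDNA with knockdown replicate 1 (interval 1.14% to 5.28%) and 11.5% in replicate 2 (8.24% to 15.9%). Hsp70Ab held 33.3% (27.7% to 39.5%) and 8.55% in the same replicates. How the authors' counting assigned reads that match several copies is not given in the sources used here, so the split between copies is uncertain. The intervals cover counting error only.

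**Figure D2:**
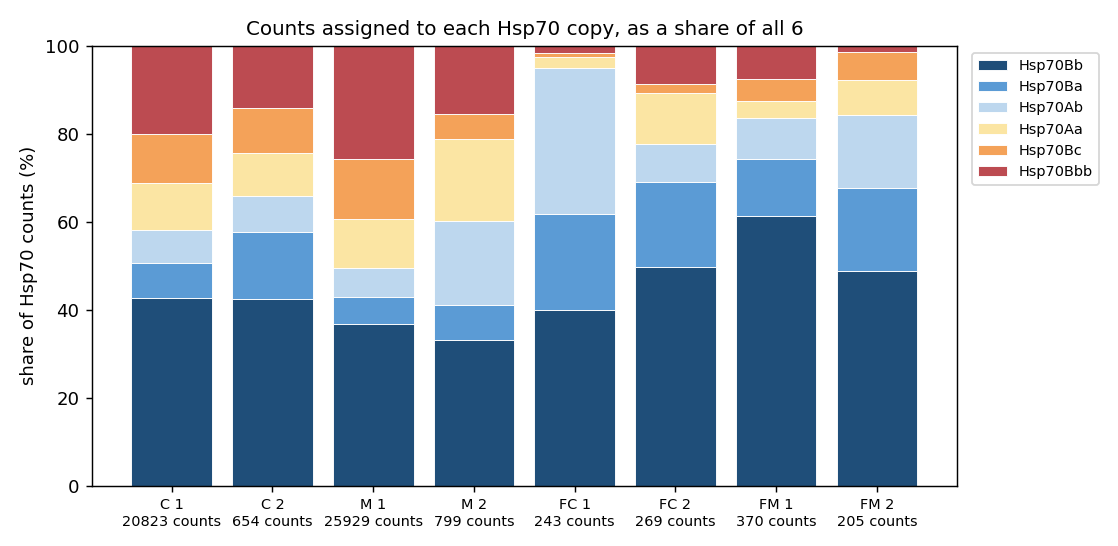
Share of each of the 6 Hsp70 copies in the Hsp70 counts of each library (stacked bars, percent; C is control, M mutant, FC and FM the same with FOXO knockdown, 1 and 2 the replicates). Hsp70Bbb and Hsp70Bc together take 21.2% to 39.4% in the 4 libraries without FOXO knockdown and 2.47% to 12.4% in the 4 with it.

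As single rows, Hsp70Aa, Hsp70Bbb and Hsp70Bc stood under 2 CPM in every knockdown library, while Hsp70Bb stayed above 5 CPM. Hsp70Bb had 70.8 and 13.6 CPM with control mtDNA, 145 and 9.39 with mutant mtDNA, and 5.74, 8.55, 9.29 and 5.79 in the knockdown libraries. Hsp70Bbb had 33.2 and 4.50 CPM with control mtDNA, 101 and 4.37 with mutant mtDNA, and 0.237, 1.47, 1.15 and 0.174 with knockdown. Hsp70Bc had 18.7 and 3.28 CPM, 54.1 and 1.64 CPM, and 0.118, 0.383, 0.737 and 0.752 CPM in the same order. Of these, the knockdown and other libraries did not overlap for Hsp70Bbb and Hsp70Bc, as for 4.2% of all features, and for Hsp70Bb they were separated by only 9.29 against 9.39 CPM. Hsp70Aa ranged from 0.355 to 1.98 CPM with knockdown and from 3.13 to 44.0 CPM without it. Hsp70Ab and Hsp70Ba overlapped between the libraries with and without knockdown, at 1.39 to 4.79 against 2.64 to 25.9 CPM and at 1.96 to 3.32 against 2.31 to 23.4 CPM.

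Hsp68, a heat-induced Hsp70 relative from a single gene, had the widest range of the 3 summed or single genes. It stood at 199 and 24.4 CPM in control replicates 1 and 2 and at 204 and 21.9 CPM in mutant replicates 1 and 2. With knockdown it stood at 3.67 and 5.23 CPM with control mtDNA and at 3.60 and 3.59 CPM with mutant mtDNA, from 62 to 88 counts per library. The highest library was 56.8-fold above the lowest, against 33.2-fold for the summed Hsp70 copies. Within the high-rRNA libraries alone, control replicate 2 was 5.49-fold above the mean of its knockdown pair and mutant replicate 2 was 6.09-fold above the mean of its own. Group means were 112 ± 123 CPM with control and 113 ± 129 CPM with mutant mtDNA, and 4.45 ± 1.11 and 3.60 ± 0.00905 CPM with knockdown (SD, n = 2 each).

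Hsp83, the cytosolic Hsp90, varied far less and stayed abundant in every library. Its CPM were 938 and 484 with control mtDNA, 987 and 568 with mutant mtDNA, 419 and 390.0 with control mtDNA and knockdown, and 311 and 313 with mutant mtDNA and knockdown. Again the 4 knockdown libraries lay below the 4 others, and the lowest library was 3.17-fold under the highest. Group means were 711 ± 321, 778 ± 296, 405 ± 20.6 and 312 ± 1.26 CPM (SD, n = 2 each). Mutant replicate 2 was 1.82-fold above the mean of its knockdown pair, and control replicate 2 was 1.20-fold above the mean of its own.

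Per kilobase of exon, which allows levels of different genes to be compared, Hsp83 was the most abundant of the family in every library, at 105 to 334 CPM per kilobase. It ranked 72nd to 144th among 11438 features ordered by this level. The summed Hsp70 copies had 70.3 and 13.6 CPM per kilobase with control mtDNA, 167 and 12.0 with mutant mtDNA, and 5.03 to 7.27 with knockdown. Hsp68 had 89.1 and 10.9, then 91.4 and 9.82, and 1.61 to 2.35 with knockdown. Hsp68 was above Hsp70 in control replicate 1 and below it in the other 7 libraries. The ratio of Hsp68 to Hsp70 was 0.548 to 1.27 without knockdown and 0.252 to 0.322 with it, with no overlap, so the difference between these libraries was greater for Hsp68 than for Hsp70. Against Hsc70-4, the Hsp70 relative made without stress, Hsp70 stood at 0.0571 to 0.311 of its per-length level without knockdown and at 0.0305 to 0.0471 with it.

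Between the library classes, all 3 summed or single genes were higher in the low-rRNA libraries. In an edgeR fit that adds a term for the class to the 4 group means, the summed Hsp70 copies were 8.50-fold higher there (log2 fold change 3.09, SE 0.27, adjusted p = 3.90e-06). Hsp68 was 8.71-fold higher (3.12, SE 0.15, adjusted p = 4.34e-08, edgeR) and Hsp83 1.84-fold higher (0.88, SE 0.11, adjusted p = 9.40e-05, edgeR). The Hsp70 value was 2.41 without mutant replicate 1, 2.42 without mutant replicate 2, 3.81 without control replicate 1 and 3.75 without control replicate 2, and it passed each time. Of the 11556 features tested, 15.3% were called higher in this comparison. Each of the 6 Hsp70 copies was called higher when tested as a row of its own, with log2 fold changes of 2.25 to 3.75, where 15.3% of features were also called higher. Summed markers of other cell types moved with the class, but single markers did not all follow. The enterocyte sum stood at 3097 to 4067 CPM in the low-rRNA libraries against 2038 to 2679 in the others. The visceral muscle sum stood at 737 to 738 against 350 to 552 CPM. The enterocyte marker Myo31DF went the other way (93.3 and 100 against 112.5 to 155 CPM), as did the muscle marker Tm1 (131 and 131 against 189 to 251 CPM). The class fit called 4 of 5 enterocyte and 2 of 5 muscle markers higher and 1 of each lower. Summed progenitor markers overlapped, at 54.7 to 95.9 against 38.4 to 71.0 CPM. The enteroendocrine sum was lower, at 59.6 to 72.3 against 78.9 to 117 CPM, with 1 of 5 markers called higher and 2 lower. Of all features 15.3% were called higher and 15% lower in this comparison. The part of cell makeup, rRNA share or handling in the class difference of the heat shock genes was not tested.

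FOXO knockdown against none, the comparison that bears on FOXO in these cells, gave lower values for all 3 genes in both mtDNA backgrounds. With 1 mean per group, the log2 fold change averaged over mtDNA was -3.31 (SE 0.83) for Hsp70, -4.81 (SE 0.89) for Hsp68 and -1.07 (SE 0.31) for Hsp83. None of these passed, with edgeR adjusted p of 0.388, 0.264 and 0.388. That fit called 0% of 11556 features lower and 0.00865% higher in the averaged comparison, with 1434 features at an unadjusted p under 0.05. DESeq2 on the same design called 170 features, among them Hsp68 (-4.76, adjusted p = 3.02e-09), Hsp70 (-3.26, adjusted p = 0.000289) and Hsp83 (-1.03, adjusted p = 0.0422). CPM of all 3 genes were lower in 4 of 4 knockdown libraries than in any of the 4 others, a pattern held by 4.2% of features. An exact two-sided permutation test of log2 CPM over these 8 libraries gave p = 0.0286 for each gene, the smallest value the design allows. Any feature with this separation gets that value, so it only restates the pattern. The test also treats low-rRNA and high-rRNA libraries alike and cannot separate knockdown from class.

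When the library class was taken into account, knockdown lowered all 3 genes. With the class term, the averaged log2 fold change was -2.53 for Hsp68 (SE 0.13, edgeR adjusted p = 1.13e-06), -1.08 for Hsp70 (SE 0.22, adjusted p = 0.0345) and -0.56 for Hsp83 (SE 0.096, adjusted p = 0.0124). Among all features 0.649% were called lower. In the 6 high-rRNA libraries alone, where no class has to be modelled, the averaged values were -2.53 (SE 0.20, adjusted p = 4.10e-09), -1.04 (SE 0.15, adjusted p = 3.94e-05) and -0.56 (SE 0.073, adjusted p = 1.62e-05, edgeR), with 1.79% of features called lower. All 4 knockdown libraries were below both others for each gene, as for 8.88% of features, and the exact permutation test there cannot give less than the p = 0.0667 it gave. Enteroendocrine markers moved with the label too, with a summed level of 59.6 to 95.3 CPM without and 101 to 117 CPM with knockdown. In the class fit 0 of these 5 markers were called for averaged knockdown. There 1 was called higher with control and 1 with mutant mtDNA, against 0.398% and 0.762% of features. The 0 for averaged knockdown did not hold in the high-rRNA libraries alone, where some of these markers were called higher. The median averaged log2 fold change of the 5 markers was 0.41 in both fits, with 4 of 5 positive in each. NPF stood at 1.57 CPM in control replicate 2 but 9.43 in mutant replicate 2, against 6.66 to 9.66 with knockdown. AstC stood at 27.6 and 23.1 CPM there, against 37.3 to 44.1. The part of these markers in the fall of the heat shock genes was not tested. Summed progenitor, enterocyte and visceral muscle markers overlapped between the libraries with and without knockdown. The median averaged log2 fold change of the 5 progenitor markers was 0.56 in the class fit, beside -0.02 over all features. In the high-rRNA libraries alone it was also 0.56, beside 0.00, with 5 of 5 positive in both fits. The class fit called 0 of them, against 0.839% of features called higher. Enterocyte and muscle medians were 0.03 and -0.07 in the class fit. The part of the progenitor markers was not tested either. In the high-rRNA fit the 2 groups without knockdown have 1 library each, whose spread is assumed to be like that of the knockdown pairs. With the class term, the averaged value likewise sets the knockdown libraries against control replicate 2 and mutant replicate 2. The near-equal averages of both fits thus follow from the design and are not separate results. With the class term the fall of Hsp68 passed without each library in turn. That of Hsp70 with the class term did not pass without control replicate 2 (-0.36), without replicate 1 of control mtDNA with knockdown (-1.02, adjusted p = 0.0591), or in DESeq2 (-1.09, adjusted p = 0.0634), and it was -1.75 without mutant replicate 2.

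**Figure D3:**
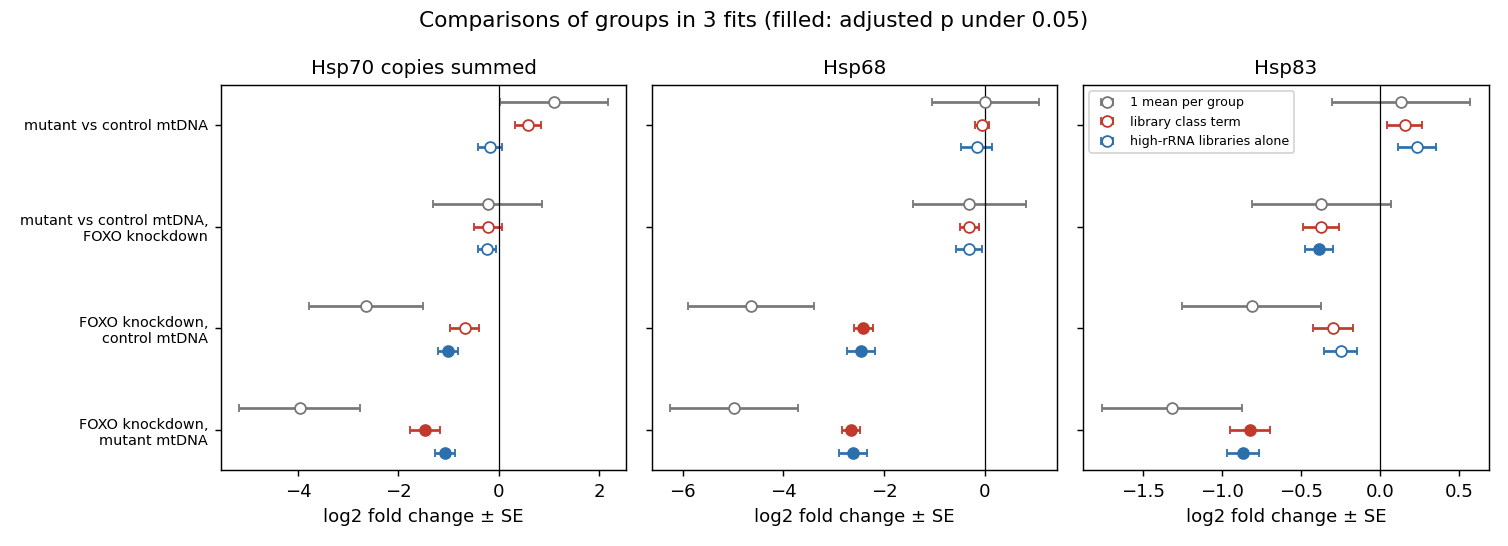
Log2 fold change ± SE of the summed Hsp70 copies, Hsp68 and Hsp83 in 4 comparisons and 3 edgeR fits (1 mean per group, with the library class term, and the 6 high-rRNA libraries alone), with filled points where the adjusted p is under 0.05 and an axis of its own in each panel. The Hsp68 points for FOXO knockdown lie near -2.5 in both fits that account for the class. These fits share the 6 high-rRNA libraries and are not independent.

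Hsp68 fell in both mtDNA backgrounds, and the calls for Hsp70 and Hsp83 depended on the background and the fit. With control mtDNA, Hsp68 fell by 2.41 on the log2 scale in the class fit (SE 0.18, edgeR adjusted p = 5.33e-05), where 0.398% of features were called higher and 0.164% lower. Hsp70, at -0.68 (SE 0.28, adjusted p = 0.476), and Hsp83, at -0.30 (SE 0.13, adjusted p = 0.480), did not pass. In the high-rRNA libraries alone Hsp70 passed at -1.01 (SE 0.21, adjusted p = 0.00676), against 0.831% of features called lower, and Hsp83 stood at -0.25 (adjusted p = 0.359). The Hsp70 value of the class fit rests on control replicate 2, without which it was 0.35. It passed at -1.03 without control replicate 1, mutant replicate 1 or mutant replicate 2. With mutant mtDNA all 3 fell in the class fit, Hsp68 by 2.66 (SE 0.18, adjusted p = 1.40e-05), Hsp70 by 1.47 (SE 0.30, adjusted p = 0.0265) and Hsp83 by 0.83 (SE 0.12, adjusted p = 0.00567), against 1.14% of features called lower. Without mutant replicate 2 the Hsp70 value was -2.47. The high-rRNA libraries alone gave -2.61, -1.07 and -0.87, all past the threshold, against 2% of features called lower. With 1 mean per group edgeR called no value in either background, at adjusted p of 0.782 and 0.779 for each gene, with 0% of features called lower and 621 and 643 features at an unadjusted p under 0.05. DESeq2 on the same design called 23 and 58 features, with Hsp68 among them in both backgrounds (-4.59, adjusted p = 0.00196, and -4.93, adjusted p = 0.000125) and Hsp70 with mutant mtDNA (-3.92, adjusted p = 0.00796).

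Among the copies tested as rows of their own, 3 of 6 were called lower for knockdown averaged over mtDNA in the class fit, where 0.666% of features were. These were Hsp70Aa (-2.12, SE 0.40, edgeR adjusted p = 0.0222), Hsp70Bbb (-2.51, SE 0.52, adjusted p = 0.0341) and Hsp70Bc (-2.53, SE 0.54, adjusted p = 0.0419). Hsp70Ab, Hsp70Ba and Hsp70Bb had -0.72, -0.44 and -0.66 and did not pass. In the high-rRNA libraries alone Hsp70Aa and Hsp70Bbb passed, Hsp70Bc did not (adjusted p = 0.0587), and 2.02% of features were called higher and 1.79% lower. Whether the copies differed from each other was not tested, and all 6 log2 fold changes were negative in each of the 3 fits.

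Mutant against control mtDNA, the comparison the series' title ties to disrupted oxidative phosphorylation, gave no called difference for these genes with all libraries in any of the 3 fits. Without knockdown the log2 fold change of Hsp70 was 1.09 (SE 1.08, edgeR adjusted p = 1) with 1 mean per group, 0.58 (SE 0.25, adjusted p = 0.411) with the class term and -0.17 (SE 0.24, adjusted p = 0.981) in the high-rRNA libraries alone. The rise rests on mutant replicate 1, which was 2.37-fold above control replicate 1, while mutant replicate 2 was at 0.888 of control replicate 2. With the class term it was called without control replicate 2 (1.20) or mutant replicate 2 (1.24), and was -0.16 without replicate 1 of either group. Hsp68 differed little within a class, with ratios of mutant to control of 1.03 in the low-rRNA and 0.898 in the high-rRNA pair, and a class-fit value of -0.053 (SE 0.14). Hsp83 had ratios of 1.05 and 1.18 and a class-fit value of 0.15 (SE 0.11, adjusted p = 0.827). Shares of features called were 0% either way with 1 mean per group, 1.45% higher and 0.649% lower with the class term, and 1.33% and 0.746% in the high-rRNA libraries. With 1 mean per group 233 features had an unadjusted p under 0.05, and DESeq2 called 18.

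Under FOXO knockdown, where all 4 libraries are high-rRNA libraries, the call for Hsp83 between the mtDNA backgrounds depended on the fit. Summed Hsp70 levels overlapped between the backgrounds. Hsp68 stood at 3.60 and 3.59 CPM with mutant against 3.67 and 5.23 CPM with control mtDNA, without overlap. Hsp83 stood at 311 and 313 CPM with mutant against 419 and 390.0 CPM with control mtDNA, also without overlap, as did 17.5% of features in this direction. Its log2 fold change was -0.37 in both 8-library fits, not called at edgeR adjusted p of 1 and 0.343, and -0.39 (SE 0.086, adjusted p = 0.0183) in the high-rRNA libraries alone, where 0.559% of features were called higher and 0.78% lower. Hsp70, at -0.22 (SE 0.28, adjusted p = 0.851), and Hsp68, at -0.30 (SE 0.19, adjusted p = 0.666), were not called in the class fit, in which 0.112% of features were called higher and 0.0519% lower. With 1 mean per group 0% were called, 264 had an unadjusted p under 0.05 and DESeq2 called 5.

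The difference between the mtDNA contrasts with and without knockdown, the interaction, was called for Hsp83 in the high-rRNA libraries alone (-0.62, SE 0.15, edgeR adjusted p = 0.0297), against 0.466% of features called higher and 1.13% lower. In the edgeR class fit, with 0.138% and 0.381% of features called, it was -0.53 (SE 0.16, adjusted p = 0.236), and with 1 mean per group -0.50 (SE 0.62, adjusted p = 1). DESeq2 with the class term on all 8 libraries called it (-0.54, adjusted p = 0.00163), and called the contrast under knockdown (-0.39, adjusted p = 0.00274). The group without knockdown is represented by 1 library per mtDNA in the high-rRNA fit. Summed visceral muscle markers also differed between these libraries, at 350 CPM in control replicate 2 and 552 in mutant replicate 2. With knockdown that sum was 451 to 469 CPM. The median interaction of the 5 muscle markers was -1.18 in the high-rRNA libraries alone (1 of 5 positive), beside 0.02 over all features. The part of these markers in the interaction of Hsp83 was not tested. For Hsp70 the interaction was -1.31, -0.79 and -0.06 and for Hsp68 -0.32, -0.25 and -0.16 in the fits with 1 mean per group, with the class term and with the high-rRNA libraries alone, and none passed. The class-fit value of Hsp70 did pass without control replicate 2 (-1.42) or mutant replicate 2 (-1.44). With 1 mean per group 0% of features were called, 214 had an unadjusted p under 0.05, and DESeq2 called 0.

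The other chaperone genes were read from lists of Hsp70 relatives made without stress or in organelles (8 genes tested), Hsp70 co-chaperones (13), Hsp90 relatives and co-chaperones (10), small heat shock proteins (7) and heat shock transcription (12). With 1 mean per group no gene of any list was called in any comparison. For FOXO knockdown averaged over mtDNA in the class fit, 0 of 8 Hsp70 relatives, 0 of 10 Hsp90 genes and 0 of 12 transcription genes were called either way, in a comparison where 0.839% of all features were called higher and 0.649% lower. Their median log2 fold changes were -0.13, 0.01 and -0.06, beside -0.02 over all features, and those of the high-rRNA libraries alone were -0.11, 0.03 and -0.06 beside 0.00, again with 0 called where 2.03% of features were higher and 1.79% lower. Hsc70-4 had 1089 and 448 CPM with control mtDNA, 1458 and 572 with mutant mtDNA and 420 to 465 with knockdown, and an averaged value of -0.19 (SE 0.098, edgeR adjusted p = 0.557). Hsc70-4 thus shared the higher level in the low-rRNA libraries (1.32, adjusted p = 4.41e-06, edgeR), but its fall under knockdown was not called. Hsf, the heat shock factor that switches the family on, had 20.9 to 22.6 CPM without and 15.1 to 20.2 CPM with knockdown. All 4 knockdown libraries were thus below the 4 others for Hsf too, as for 4.2% of all features. The averaged value of Hsf was -0.28 (SE 0.16, edgeR adjusted p = 0.597).

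Of the 13 Hsp70 co-chaperones, 1 fell with knockdown in the class fit: DnaJ-1, an Hsp40 partner of fly Hsp70, at -0.46 (edgeR adjusted p = 0.0386). Its CPM were 132 and 183 with control mtDNA, 156 and 181 with mutant mtDNA, 163 and 148 with control mtDNA and knockdown, and 109 and 116 with mutant mtDNA and knockdown. DnaJ-1 was thus lowest where both mutant mtDNA and knockdown were labelled. In the high-rRNA libraries alone stv, the fly BAG-family exchange factor of Hsp70, was also called lower (-0.28), which makes 2 of 13. That average joins 0.05 with control mtDNA (adjusted p = 0.934) and -0.60 with mutant mtDNA (adjusted p = 0.000587, edgeR), and the interaction was called (-0.66, adjusted p = 0.0222). Mutant against control mtDNA raised stv by 0.52 (adjusted p = 0.0246) and lowered mrj, another DnaJ protein, (-0.62, adjusted p = 0.0408) in the class fit, where 2 of the 7 small heat shock proteins, Hsp22 (0.68) and Hsp27 (1.03), also rose. The shares over all features there were 1.45% higher and 0.649% lower. Of the 7 small heat shock proteins, which hold unfolded proteins until Hsp70 acts on them, 4 fell with averaged knockdown in the class fit, against 0.649% of all features: Hsp23 (-2.61), Hsp22 (-2.23), Hsp26 (-2.05) and Hsp27 (-1.56). Hsp26 had 105 and 8.51 CPM with control mtDNA, 127 and 15.6 CPM with mutant mtDNA, and 1.62 to 5.92 CPM with knockdown. Its libraries with and without knockdown did not overlap, nor did those of Hsp22, Hsp23 and Hsp27, as for 4.2% of all features. Those of Hsp67Ba, Hsp67Bc and l(2)efl overlapped. For l(2)efl, control replicate 2 had 1.08 CPM and mutant replicate 2 had 5.09, against 4.08 to 6.02 with knockdown. Only control replicate 2 lay below its knockdown libraries. In the high-rRNA libraries alone 4 of the 7 were again called lower and 1, l(2)efl, higher (1.17, adjusted p = 0.0456, edgeR), against 1.79% and 2.03% of all features.

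**Figure D4:**
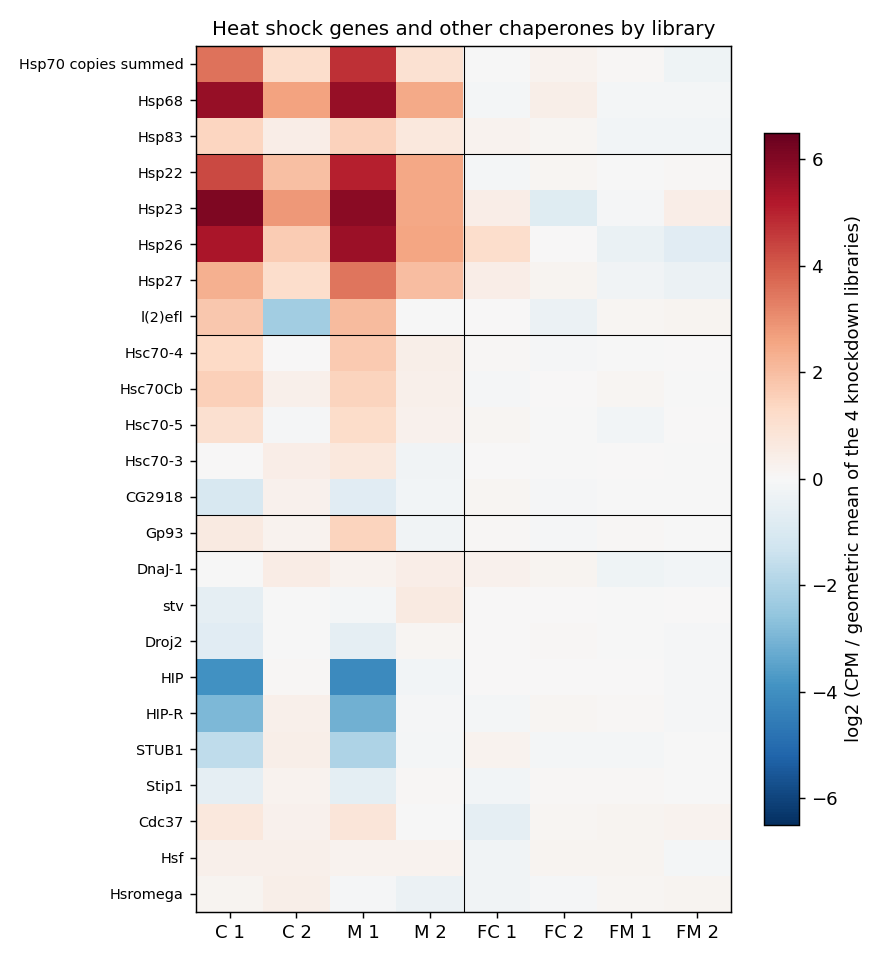
Log2 CPM of the summed Hsp70 copies, Hsp68, Hsp83 and other chaperone genes in each library, relative to the geometric mean of the 4 knockdown libraries (color scale), with libraries as columns: control (C), mutant (M), control with FOXO knockdown (FC) and mutant with FOXO knockdown (FM), replicates 1 and 2. The Hsp70 copies, Hsp68, Hsp22, Hsp23, Hsp26 and Hsp27 are high in control replicate 1 and mutant replicate 1 and intermediate in replicate 2 of both groups. Hsf has 20.9 to 22.6 CPM without and 15.1 to 20.2 CPM with knockdown, also without overlap.

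In the low-rRNA against the high-rRNA libraries, the other chaperone genes did not all follow the members, in a comparison where 15.3% of all features were called higher and 15% lower. Small heat shock proteins were called higher for 5 of 7 genes, and Hsp70 relatives for 3 of 8, with Hsc70-4, Hsc70Cb (1.17) and the mitochondrial Hsc70-5 (1.00) higher and CG2918 lower (-0.92). Among the co-chaperones 8 of 13 were called lower and 1 higher. The largest of these falls were in HIP (-3.98) and HIP-R (-3.15), cofactors of Hsp70 from neighbouring genes much alike in sequence, so that reads may be split between them. HIP had 2.34 to 2.66 CPM in the low-rRNA libraries and 36.4 to 42.6 CPM in the others. Hsp90 partners split, with Gp93, the Hsp90 of the endoplasmic reticulum, higher (1.04) and Stip1, which joins Hsp70 to Hsp90, lower (-0.76). Of the transcription genes 1 was called higher and 3 lower, with Hsf at -0.01.

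Across the 8 libraries, log2 CPM of the summed Hsp70 copies ran with that of Hsp68 (Pearson's r of 0.963) and of Hsp83 (0.952). The 10 features most like it were CG12825 (0.995), CG8420, Vha100-4, Fib, CR43615, pcm, CG2604, Sirt4, CG16749 and CG33926, the last 9 at 0.989 to 0.994. Hsc70-4 stood at 0.971 and Hsf at 0.557, with a median of 0.143 over all features. Over the 6 high-rRNA libraries alone r was 0.976 for Hsp68, 0.852 for Hsp83, 0.803 for Hsf and 0.479 for Hsc70-4, beside a median of 0.0659, and none of the 10 features was among the 10 most like there, which CG46315 (0.988) led. The first set of values describes 8 libraries that share the split by rRNA, and no p is attached to either set.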

How the data were processed

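The authors deposited raw read counts per gene, as whole numbers with no normalization. The submitters' processing notes name FastQC, cutadapt, HISAT2, featureCounts and limma. Versions, genome build, annotation, use of strand and treatment of reads with several matches are not given in the sources used here, so no coordinates are printed. Groups and replicates come from the labels. Of 17473 identifiers, 17331 matched the Ensembl annotation, used for exon lengths and overlaps. No sequence is shown.

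Counts were analysed with edgeR 4.0.16 in R 4.3.3: filterByExpr on the 4 groups, TMM scaling, quasi-likelihood F-tests (two-sided) and Benjamini-Hochberg adjustment over all 11556 features, with the 6 Hsp70 copies as a single summed row (11561 with the copies as rows of their own), at a threshold of 0.05. The planned fit has 1 mean per group. A second adds a library class term, dividing the libraries at an rRNA share of 50%, and the last uses the 6 high-rRNA libraries (11798 features tested). SE is the log2 fold change over the square root of F. The fits were tested on simulated data. Total counts ranged from 21133996 to 39327066, and 3 counts, the most that a count of 0 allows, are 0.0239 to 0.191 CPM on the TMM scale. This covers counting error only.

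Members, gene lists and the class term were chosen with earlier results of these data known. Named are the members, in each list up to 4 genes with the smallest p in a comparison, and the 10 features most like summed Hsp70. Hsc70-4, Hsf and the genes named only for the class difference were given beside these. Alternatives were DESeq2 1.42.0, other library sizes and filters, Hsp70Bb alone, a replicate block, only the libraries compared, and leaving out each library. Figures were made in Python 3.11.15 with matplotlib 3.10.9.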

Additional observations from a re-analysis of the deposited data

Results flagged for a closer look

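The mtDNA contrast of Hsp83, mutant against control, differed with and without FOXO knockdown in the 6 high-rRNA libraries alone (log2 difference -0.62, SE 0.15, edgeR adjusted p = 0.0297). It was 0.23 (SE 0.12) without and -0.39 (SE 0.086) with knockdown there, and the former compares 1 library with 1. Summed visceral muscle markers differed between those libraries too, at 350 CPM in control replicate 2 and 552 in mutant replicate 2. The median log2 fold change of these 5 markers there was 1.35 (4 of 5 positive), beside -0.01 over all features. Their median interaction was -1.18 (1 of 5 positive), beside 0.02. With all 8 libraries edgeR did not call the Hsp83 difference, at -0.53 with the class term and -0.50 without it. DESeq2 with the class term did (-0.54, adjusted p = 0.00163).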

How the results depend on the processing

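Log2 fold changes are given here, named for mutant against control mtDNA (M), the same under knockdown (KM), the interaction (I), and knockdown with control mtDNA (KC), with mutant mtDNA (KU) and averaged (KA). In the planned edgeR fit no comparison of Hsp70, Hsp68 or Hsp83 passed, and the direction of KC, KU and KA held for all 3 genes under every alternative run on it, leaving out libraries included. The values that passed were as follows. With the class term they were Hsp68 KC -2.41, KU -2.66 and KA -2.53, Hsp70 KU -1.47 and KA -1.08, and Hsp83 KU -0.83 and KA -0.56. In the high-rRNA libraries they were Hsp68 -2.45, -2.61 and -2.53, Hsp70 -1.01, -1.07 and -1.04 for KC, KU and KA, and Hsp83 KM -0.39, I -0.62, KU -0.87 and KA -0.56. DESeq2 called Hsp68 KC -4.59, KU -4.93 and KA -4.76, Hsp70 KU -3.92 and KA -3.26 and Hsp83 KA -1.03. DESeq2 with the class term called Hsp68 -2.40, -2.66 and -2.53, Hsp70 KU -1.48, and Hsp83 KM -0.39, I -0.54, KU -0.83 and KA -0.56. Without a filter on low counts Hsp68 KU -5.07 and KA -4.93 and Hsp70 KA -3.42 passed. With the class term and library sizes outside rRNA, Hsp68 -2.45, -2.57 and -2.51, Hsp70 KU -1.38 and KA -1.05, and Hsp83 KU -0.74 and KA -0.54 passed.

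The replicate numbers did not pair the samples: same-numbered deviations correlated at 0.654 between control and mutant mtDNA and at -0.0384 to -0.000352 otherwise. With a replicate block and the class term, Hsp68 KC -2.29, KU -2.52 and KA -2.41, Hsp70 KU -1.50 and Hsp83 KU -0.85 passed, while Hsp70 KA -1.10 (adjusted p = 0.0800) and Hsp83 KA -0.59 (adjusted p = 0.0795) did not.

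Directions turned only in M, KM and I in the planned fit. Hsp68 M, 0.02 there, was -0.053 with the class term, -0.16 in the high-rRNA libraries, -0.012 with the replicate block, -0.053 with block and class term, -0.38 on total counts, -0.18 with the class term and sizes outside rRNA, -0.00048 without a filter, -0.0021 with at least 5 CPM in 2 libraries, -0.054 in DESeq2 with the class term and -0.0053 with only the libraries compared. Hsp83 M was -0.28 on total counts, Hsp70 M -0.17 in the high-rRNA libraries, and Hsp70Bb alone gave KM 0.082. Leaving out each library gave M of -2.37 to 2.24 for Hsp68, -0.33 to 0.71 for Hsp83 and -1.82 to 2.75 for Hsp70, and I of -2.54 to 2.07 for Hsp68 and -2.97 to 1.61 for Hsp70. In the class fit, total counts turned Hsp83 M to -0.094 and Hsp70Bb alone turned KM to 0.10. There, leaving out each library gave Hsp70 M of -0.16 to 1.24 (called without control replicate 2, at 1.20, or mutant replicate 2, at 1.24), Hsp70 KC of -1.03 to 0.35 (called in 3 of 8), Hsp68 M of -0.14 to 0.032 and Hsp68 I of -0.49 to 0.038. Hsp70Bb alone did not pass in the class fit for KU (-0.77) or KA (-0.66). Hsp83 KM passed there in 4 of 8 such repeats and Hsp83 I in 2. The cause of these changes was not tested. Scaling by total counts moved the median of all features by -1.60 in KC and -1.30 in KU. Shares of single copies are least precise in the knockdown libraries, which hold 205 to 370 Hsp70 counts against 654 to 25929 in the others.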

Other observations

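Hsromega, a long noncoding RNA made in the heat shock response, did not follow the Hsp70 copies from library to library. It had 266 and 309.7 CPM with control mtDNA, 219.9 and 179 CPM with mutant mtDNA, 197 and 224 CPM with control mtDNA and FOXO knockdown, and 256 and 266 CPM with mutant mtDNA and knockdown. In the 6 high-rRNA libraries alone knockdown lowered it with control mtDNA (log2 fold change -0.55, edgeR adjusted p = 0.00262) and raised it with mutant mtDNA (0.54, adjusted p = 0.0028), and neither passed in the fit with the class term (adjusted p of 0.335 and 0.327).

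The alphagamma-element transcript CR3286, annotated in the Hsp70B cluster and chosen after its values were seen, had 132 and 104 counts in control replicate 1 and mutant replicate 1. It had 1 and 12 counts in control replicate 2 and mutant replicate 2 and 0 to 7 counts in the knockdown libraries.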
